A study of Mus musculus with 2 samples.

Results

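The 31 genes described here make cholesterol and fatty acids or regulate that synthesis. They were chosen by name, by their place in the pathway, out of 32285 genes in the matrix, and all 31 were found there. The sterol set holds 21 genes: 18 enzymes from acetyl-CoA to cholesterol, the regulators Srebf2 and Insig1, and the sterol transfer protein gene Stard4. The fatty acid set holds 10 genes: the regulator Srebf1 and 9 enzymes.

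The cells are B16 F10, a mouse melanoma line that makes melanin and is labelled as melanocytes. They had been seeded at 100 cells per cm2, grown for 7 days in high-glucose DMEM (10% fetal bovine serum), and split by side scatter, an optical stand-in for pigment, into low and high pigment fractions. Each fraction gave 1 droplet library of single-cell RNA tags, so each group is 1 sample, no test between groups is possible, and every interval below is a 95% interval that covers counting error only. Both groups share the line, the medium and the day of harvest, and a difference between fractions cannot be told apart from a difference between these 2 libraries.

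Cells build cholesterol from acetyl-CoA by way of mevalonate, farnesyl diphosphate, squalene and lanosterol, and build fatty acids from the same acetyl-CoA. Most of these genes are targets of the SREBP transcription factors. Insig proteins hold the SREBP precursors in the endoplasmic reticulum while sterol is plentiful, and release them for processing when it runs low. The SREBP made from Srebf2 acts mainly on sterol genes and those from Srebf1 mainly on fatty acid genes.

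The authors' cell table kept 1900 low pigment and 2136 high pigment cells of 5818 barcodes. The low pigment cells were deeper, with a median of 16020 unique molecular identifiers (UMIs, one per captured RNA molecule) per cell against 12557. Levels are given as UMIs per 1000000 of the library's total (CPM), the totals being 32437194 and 28848691 UMIs, and a gene counts as measured at a mean of 10 CPM or more. It is called lower where its high pigment level was at most 0.8 of its low pigment level, and higher where the reverse held, by size alone. No barcode sequence of the cell table occurred in both libraries, against 2 in the whole matrix. All 10 melanocyte markers had at least 3525 UMIs in each library and summed to 13331 CPM in the low and 17008 CPM in the high pigment library. Marker lists of fibroblasts, leukocytes, keratinocytes and adipocytes summed to at most 5.52 CPM in either library, and that of endothelial cells to 22.6 and 2.98 CPM, mostly from Pecam1. The 16 measured immediate early genes, which respond to handling and growth signals, also moved with the library: 14 were called lower, and the median log2 ratio (high over low pigment) was -2.40.

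Sterol and fatty acid genes were lower in the high pigment library almost throughout. Of the 29 members that passed the level filter, 26 were called lower, 0 higher and 3 neither, while of the 7849 measured genes 23.4% were called lower and 10.9% higher. The sterol set had 18 of 20 measured genes lower, with a median log2 ratio of -0.74, and the fatty acid set 8 of 9, with a median of -0.52. The median of all measured genes was -0.08. At a 1.5-fold limit, which 8.08% of measured genes passed in this direction, 13 of 20 sterol and 3 of 9 fatty acid genes were lower. Tm7sf2 and Acss2 fell under the level filter. By counting error alone, the interval of the ratio lay below 1 for 28 of the 31 genes and held 1 for 3, namely Tm7sf2, Ebp and Acss2. The share of all measured genes with such an interval over all cells is not given here. At this many UMIs the intervals are narrow and can exclude 1 at small differences, such as 1.15-fold for Nsdhl.

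Added over its 21 genes, the sterol set held 2014 CPM in the low pigment library and 1128 CPM in the high, a 1.79-fold difference (1.76 to 1.81). The fatty acid set held 999 CPM and 689 CPM, 1.45-fold lower (1.42 to 1.48). Scd2 supplied 16407 of the 32405 fatty acid UMIs of the low pigment library, and without it the set was 1.44-fold lower. Per cell, without scaling to depth, there were 34.4 sterol UMIs against 15.2 and 17.1 fatty acid UMIs against 9.31.

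**Figure D1:**
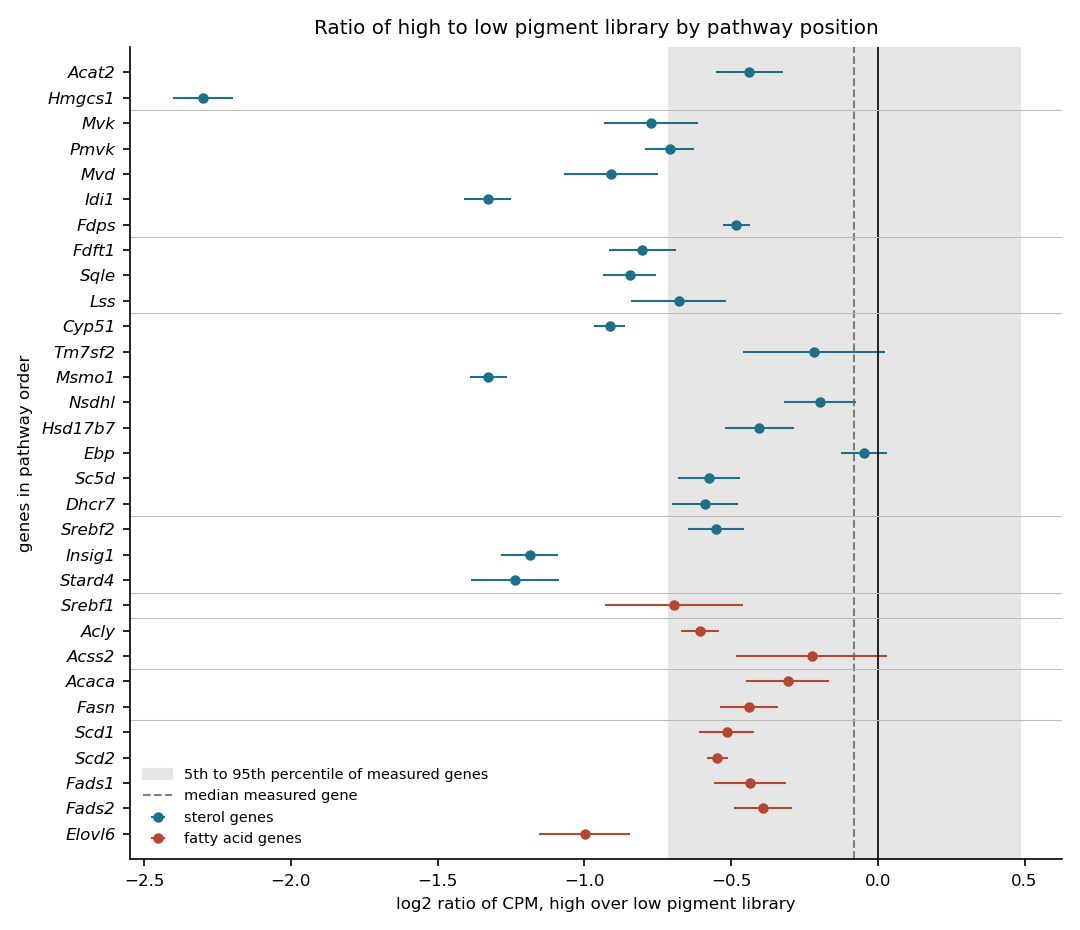
Log2 ratio of CPM, high over low pigment library, for the 31 genes in pathway order, with 95% intervals for counting error (bars), 1 library per group. The grey band spans the 5th to 95th percentile of measured genes and the dashed line their median of -0.08; Hmgcs1 stands far to the left at -2.30, and Ebp lies near 0.

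The sharpest contrast of the pathway lay in Hmgcs1 and was not shared by Acat2, the other gene of the first steps. Hmgcs1, which encodes the cytosolic synthase that joins acetoacetyl-CoA to another acetyl-CoA, had 153 CPM in the low pigment library and 31.02 CPM in the high, 4.92-fold lower (4.58 to 5.29). Only 23 of the 7849 measured genes had a lower ratio. Acat2, the thiolase of the step before, had 48.5 and 35.8 CPM, 1.35-fold lower (1.251 to 1.47).

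All 5 genes from mevalonate to farnesyl diphosphate were lower, with a median log2 ratio of -0.77. Idi1, the isomerase that turns isopentenyl diphosphate into its reactive partner, stood out with 144 CPM against 57.4 CPM, 2.51-fold lower (2.38 to 2.66). The mevalonate kinase Mvk (28.9 and 16.9 CPM), the phosphomevalonate kinase Pmvk (105 and 64.4 CPM) and the decarboxylase Mvd (30.98 and 16.5 CPM) were 1.71-, 1.64- and 1.88-fold lower. Fdps, the synthase whose product also feeds protein prenylation and other branches, had the smallest difference of this stretch, with 291 against 208 CPM, 1.40-fold lower (1.35 to 1.44).

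The 3 genes that commit carbon to sterols lay close together, at a median of -0.80. They are Fdft1, the squalene synthase (57.2 and 32.8 CPM, 1.74-fold lower), Sqle, the squalene epoxidase (90.5 and 50.4 CPM, 1.80-fold), and Lss, the lanosterol cyclase (27.2 and 17.0 CPM, 1.60-fold). The interval of Sqle, 1.69 to 1.92, overlapped that of each of the other 2.

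The steps from lanosterol to cholesterol were uneven. Msmo1, the C4 methyl sterol oxidase, had 245 against 97.5 CPM, 2.51-fold lower (2.40 to 2.62), and Cyp51, the lanosterol demethylase, 284 against 151 CPM, 1.88-fold lower (1.82 to 1.95). The partners of Msmo1 in removing the C4 methyl groups, the dehydrogenase Nsdhl and the reductase Hsd17b7, showed much smaller differences. Nsdhl had 37.9 against 33.0 CPM (1.15-fold, 1.05 to 1.249) and Hsd17b7 45.04 against 34.0 CPM (1.32-fold, 1.22 to 1.44). Ebp, the sterol isomerase that moves the ring double bond, was level, with 89.2 against 86.4 CPM (1.03-fold, 0.978 to 1.09). The late enzymes Sc5d, a desaturase (60.3 and 40.5 CPM), and Dhcr7, a reductase of the last steps (54.1 and 35.9 CPM), were 1.49- and 1.504-fold lower. Tm7sf2, a sterol reductase, had 10.1 and 8.70 CPM, 1.16-fold (0.983 to 1.38). In the pathway order used here the ratio tended to weaken toward cholesterol. The Spearman rho of position and log2 ratio was 0.45 over the 18 enzymes and 0.38 without Hmgcs1, given as a description of genes in 2 libraries. Tm7sf2, under the level filter, was among the 18. Acat2 at the start and Msmo1 among the late steps went against the trend.

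The regulators were lower as well. Srebf2, which encodes the sterol-sensing transcription factor, had 74.8 against 51.0 CPM, 1.47-fold lower (1.37 to 1.56). Insig1, itself an SREBP target and the brake on SREBP release, had 96.2 against 42.3 CPM, 2.28-fold lower (2.13 to 2.43). Stard4, which carries cholesterol between membranes, had 41.6 against 17.6 CPM, 2.36-fold lower (2.13 to 2.61). Hmgcs1, Idi1, Msmo1, Insig1 and Stard4 were the 5 sterol genes at least 2-fold lower, and 0 fatty acid genes passed 2-fold. The fatty acid gene Elovl6 fell just short at 1.998-fold (1.79 to 2.23), so the contrast of the sets at this limit is not sharp. Of the 7849 measured genes, 160 (2.04%) had a lower ratio than Elovl6.

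Among the fatty acid genes, Elovl6, which extends palmitate to stearate, had the largest difference, 34.0 against 17.0 CPM, 1.998-fold lower (1.79 to 2.23). Srebf1 was scarce, with 12.9 and 8.01 CPM, 1.62-fold lower (1.37 to 1.91), and the counts do not separate its transcript forms. Acly, which makes cytosolic acetyl-CoA from citrate, had 164 against 108 CPM, 1.52-fold lower (1.46 to 1.59). Acss2, which makes acetyl-CoA from acetate, had only 9.03 and 7.73 CPM, 1.17-fold (0.978 to 1.40).

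Of the fatty acid stages with more than 1 measured gene, the chain-building enzymes had the median nearest to 0, a log2 ratio of -0.37. Acaca, the carboxylase that makes malonyl-CoA, had 29.8 against 24.1 CPM (1.24-fold, 1.12 to 1.37), just short of a call with a ratio of 0.808, and Fasn, the synthase, 65.6 against 48.4 CPM (1.36-fold, 1.27 to 1.45). The desaturase genes Scd1 (72.4 and 50.6 CPM), Scd2 (506 and 346 CPM), Fads1 (42.4 and 31.4 CPM) and Fads2 (62.6 and 47.8 CPM), which add double bonds, lay between 1.31- and 1.46-fold lower. Scd1 and Scd2 are close copies whose reads may be split between them, so their separate values are uncertain. Fdft1, Cyp51, Hmgcs1, Srebf1, Acss2 and Elovl6 overlap a gene with UMIs on the opposite strand, and Tm7sf2 overlaps Vps51 on its own strand. The sources used here do not say how the counting treated strand and overlaps. Ctsb, which overlaps Fdft1, had 9256 and 10350 UMIs.

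The members that were lower together were set beside their promoters (RefSeq, GRCm38.p6, the build also called mm10), 250 bases before to 50 after each start. A sequence was found for 24 members, 17 sterol and 7 fatty acid, and Scd2, Sqle, Stard4, Fdps, Fdft1, Fads1 and Scd1 had none. The search was for CCAAT, the box bound by NF-Y, for GGGCGG, the GC box bound by Sp1, and for TCANNCCAC, a sterol regulatory element-like motif, each on both strands. The promoters of the sterol genes with large differences and of Ebp, which was level, are shown 5′ to 3′ along the gene's strand with every match in capitals, so that the boxes can be compared.
Hmgcs1, chr13:119690101-119690400, plus strand: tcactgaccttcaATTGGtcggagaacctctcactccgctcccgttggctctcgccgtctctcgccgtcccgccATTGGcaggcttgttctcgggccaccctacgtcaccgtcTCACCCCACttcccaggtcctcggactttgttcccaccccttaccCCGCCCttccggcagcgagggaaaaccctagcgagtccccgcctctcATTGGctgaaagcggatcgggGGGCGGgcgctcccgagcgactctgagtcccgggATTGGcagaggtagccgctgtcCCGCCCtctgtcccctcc
Idi1, chr13:8885356-8885655, plus strand: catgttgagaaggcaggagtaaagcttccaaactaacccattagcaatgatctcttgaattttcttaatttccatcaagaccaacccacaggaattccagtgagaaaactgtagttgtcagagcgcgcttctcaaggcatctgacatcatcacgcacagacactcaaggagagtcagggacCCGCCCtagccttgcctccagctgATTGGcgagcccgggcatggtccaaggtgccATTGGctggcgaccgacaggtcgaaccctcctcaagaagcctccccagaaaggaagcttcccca
Msmo1, chr8:64733529-64733828, minus strand: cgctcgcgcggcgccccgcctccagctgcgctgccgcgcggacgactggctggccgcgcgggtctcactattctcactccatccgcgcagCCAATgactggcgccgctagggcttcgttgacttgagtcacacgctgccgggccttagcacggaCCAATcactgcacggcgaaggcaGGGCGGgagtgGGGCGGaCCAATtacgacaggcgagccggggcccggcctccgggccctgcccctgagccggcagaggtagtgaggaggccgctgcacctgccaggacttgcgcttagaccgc
Insig1, chr5:28071162-28071461, plus strand: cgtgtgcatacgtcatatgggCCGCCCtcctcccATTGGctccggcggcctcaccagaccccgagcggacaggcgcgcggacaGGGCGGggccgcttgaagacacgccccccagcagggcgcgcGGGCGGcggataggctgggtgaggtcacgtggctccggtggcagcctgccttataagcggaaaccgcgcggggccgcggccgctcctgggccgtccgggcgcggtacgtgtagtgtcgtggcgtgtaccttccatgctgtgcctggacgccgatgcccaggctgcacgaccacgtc
Ebp, chrX:8193463-8193762, minus strand: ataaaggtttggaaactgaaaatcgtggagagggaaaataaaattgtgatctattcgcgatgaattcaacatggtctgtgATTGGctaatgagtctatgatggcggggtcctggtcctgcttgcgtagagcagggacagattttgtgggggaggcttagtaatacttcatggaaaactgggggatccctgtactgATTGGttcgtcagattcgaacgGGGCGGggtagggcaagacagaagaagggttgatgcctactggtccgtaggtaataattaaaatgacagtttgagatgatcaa

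CCAAT was present in 16 of the 17 sterol genes (94.1%), against 41.1% of all 27025 genes with a promoter and 42.8% of the 6326 measured ones. The GC box was also in 16 of 17, against 38.2% and 73.5%, and both boxes were in 15 of 17 (88.2%), against 14.5% and 29.1%. At least 2 CCAAT boxes were found in 9 of 17 sterol genes (52.9%), against 13.3% and 17.1%. Hmgcs1 carries 4 of them, 3 before and 1 after the start, and Msmo1 carries 3. In the fatty acid set CCAAT was in 4 of 7 genes, the GC box in 4 of 7 and both in 3 of 7. TCANNCCAC was in Hmgcs1, 137 bases before the start, and in Acly, 158 bases before it, against 4.78% of all genes. A pair of matches overlapped in 1 member promoter, both CCAAT, in Fasn. Ebp holds 2 CCAAT boxes and 1 GC box, so these letters alone do not separate it from genes with large differences. A match describes the sequence and is not evidence of binding.

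The lower levels were found in each phase of the cell cycle as the authors assigned it. There were 749 low and 708 high pigment cells in G1, 705 and 479 in S, and 446 and 949 in G2M. In G1, 17 of 20 measured sterol genes and 7 of 9 fatty acid genes were called lower, where 25.8% of all measured genes were. In S the counts were 18 of 20 and 9 of 9 against 22.3%, and in G2M 19 of 20 and 8 of 9 against 25.8%. Of the 31 genes, 29 were lower in the high pigment library in all 3 phases, and 26 with the interval below 1 in each. Over all measured genes, 44.6% were lower in each phase and 20.2% had the interval below 1 in each. The exceptions in direction were Hsd17b7 in G1, with 36.5 against 38.2 CPM (ratio 0.902 to 1.21), and Tm7sf2 in S, with 7.48 against 10.4 CPM (ratio 0.994 to 1.94).

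The gap between libraries was widest in G2M for the sterol set. The summed sterol level of the low pigment cells was 1819 CPM in G1, 1916 in S and 2378 in G2M, while in the high pigment cells it was 1037, 1083 and 1203 CPM. The high pigment library was thus 1.75-fold lower in G1 (1.71 to 1.80), 1.77-fold in S (1.72 to 1.82) and 1.98-fold in G2M (1.94 to 2.02). Hmgcs1 had 126, 149 and 189 CPM in the low pigment cells and 29.5, 30.6 and 32.1 CPM in the high, so that the high pigment cells were 4.28-fold lower in G1 and 5.87-fold lower in G2M. Stard4 went from 32.5 to 50.2 CPM between G1 and G2M of the low pigment cells and from 16.2 to 17.1 CPM in the high. The gap was largest in G2M for 16 of 21 sterol and 4 of 10 fatty acid genes. The share of all measured genes with their largest gap in G2M is not given here. Their median log2 ratio was -0.09 in G1, -0.05 in S and -0.09 in G2M.

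The fatty acid set followed with a smaller range. Its sums were 950, 958 and 1113 CPM in the low and 675, 641 and 719 CPM in the high pigment library, 1.41-, 1.49- and 1.55-fold lower. Elovl6 had its widest gap in S, where it had 38.9 against 16.2 CPM. So did Acat2, Pmvk, Insig1 and Ebp of the sterol set and Acss2, Acaca and Scd1 of the fatty acid set, some by little.

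Within a library, G2M cells held a larger share of sterol gene RNA than G1 cells. In the low pigment library the G2M over G1 ratio was above 1 for 20 of 21 sterol genes, with the interval above 1 for 19, and its median was 1.33. In the high pigment library it was above 1 for 19, with the interval above 1 for 9, and a median of 1.15. Of all measured genes, 52.5% and 59.1% were above 1 in the low and high pigment library, 25.2% and 22.8% with the interval above 1, and the medians were 1.01 and 1.03. For the fatty acid genes the medians were 1.14 and 1.12, with the interval above 1 for 4 and 3 of 10. Insig1 was near level in both libraries, at 1.07 (0.976 to 1.17) and 1.02 (0.900 to 1.17).

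**Figure D2:**
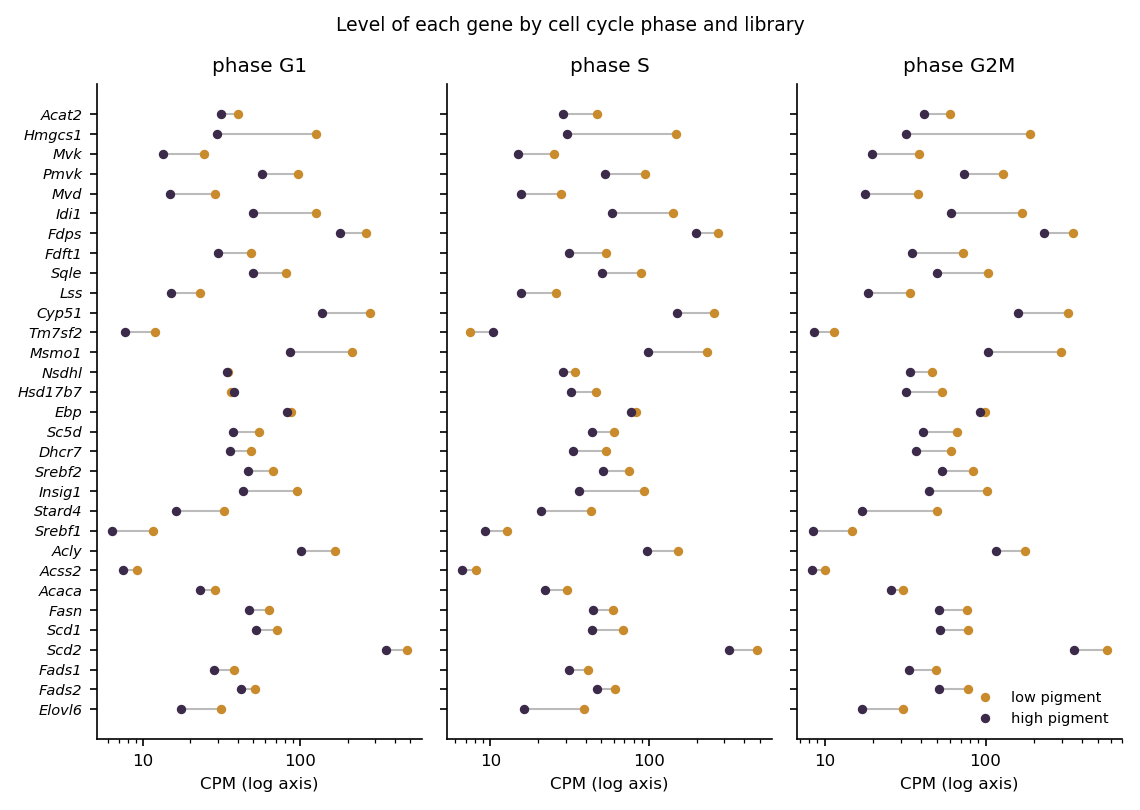
CPM (log axis) of each of the 31 genes in low pigment (gold) and high pigment (dark) cells of phases G1, S and G2M, 1 library per group. The dark point lies left of the gold one for all genes and phases but Hsd17b7 in G1 and Tm7sf2 in S.

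The authors' 4 clusters nearly split by library, with clusters 1 and 2 holding 1023 and 822 low pigment cells and clusters 0 and 3 holding 1520 and 523 high pigment cells. The clustering drew on the RNA of these same cells, so the cluster levels are a description. Both large high pigment clusters lay below both large low pigment clusters for 18 of 21 sterol genes, all but Nsdhl, Hsd17b7 and Ebp, and for 10 of 10 fatty acid genes, as did 34.8% of all measured genes. Cluster 1, mostly G1 cells, and cluster 2, mostly S and G2M cells, had summed sterol levels of 1854 and 2203 CPM. Cluster 0 had 1087 CPM and cluster 3 had 1144 CPM. Between the low pigment clusters, 19 of 21 sterol genes were higher in cluster 2, where 51.0% of measured genes were. Between the high pigment clusters 9 of 21 were higher in cluster 0, which also holds most S and G2M cells, where 41.2% of measured genes were.

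Few cells sat in a cluster dominated by the other library, and their sterol sums lay nearer to the main cells of that cluster than to either main cluster of their own library. The 48 high pigment cells of cluster 1 had 1793 CPM of sterol genes (1680 to 1912) and the 45 of cluster 2 had 2054 CPM (1935 to 2179). The 36 low pigment cells of cluster 0 had 1390 CPM (1298 to 1487) and the 19 of cluster 3 had 1337 CPM (1201 to 1485). For Hmgcs1, those high pigment cells had 93.9 and 121 CPM and those low pigment cells 77.1 and 72.8 CPM. The main low pigment cells had 129 and 180 CPM in clusters 1 and 2. The main high pigment cells had 25.6 and 38.4 CPM in clusters 0 and 3. The few cells thus lay between the main cells of the 2 libraries for this gene. Immediate early genes summed to 2126 and 2224 CPM in the high pigment cells of clusters 1 and 2, against 608 and 1009 CPM in those of clusters 0 and 3. In the low pigment cells they summed to 1743 CPM in cluster 0 and 2357 CPM in cluster 3. Those of clusters 1 and 2 had 3040 and 2362 CPM. The 19 low pigment cells of cluster 3 were all in G1, as were most of cluster 1 but few of cluster 2. The part of immediate early genes and of phase in these levels was not tested.

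**Figure D3:**
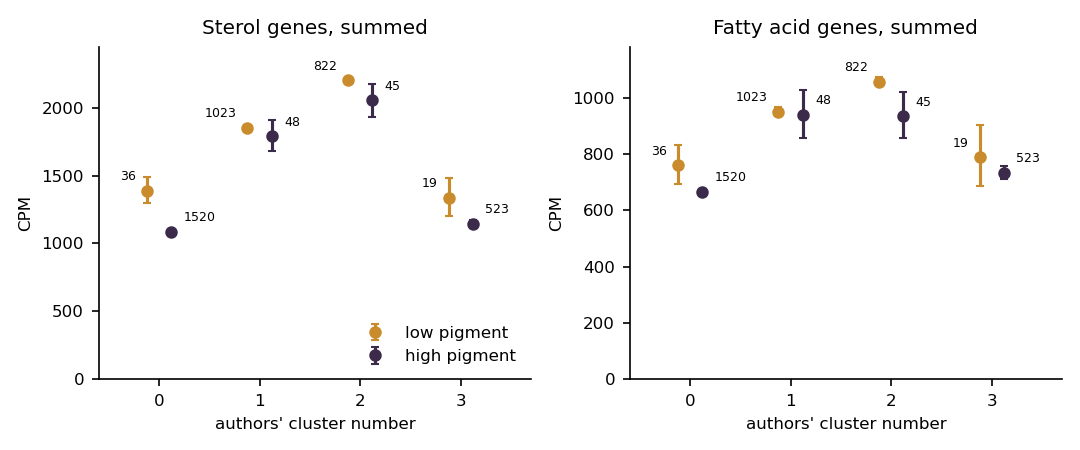
Summed CPM of the sterol genes (left) and fatty acid genes (right) in the authors' 4 clusters, by library, with 95% Poisson intervals for counting error (bars) and the number of cells beside each point. High pigment cells in clusters 1 and 2 lie near the low pigment cells of those clusters, at 1793 and 2054 CPM for the sterol genes.

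To see how cells were spread, each cell was thinned to 7500 UMIs, a depth that every cell in the table reached. The median cell then held 13 sterol UMIs in the low pigment library (quartiles 9 and 20) and 8 in the high (quartiles 5 and 11). Without thinning, the median shares were 0.177% and 0.101% of a cell's UMIs. The whole distribution was shifted and the ranges overlapped: 16.7% of high pigment cells (15.2 to 18.4, Clopper-Pearson) exceeded the median of the low pigment cells (15.7% if not thinned). Within G2M this share was 9.48%, and in G1 and S it was 16.7% and 15.9%.

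Sterol UMIs had a larger variance over the mean between cells than fatty acid UMIs. The variance over the mean, which is 1 for pure counting noise, was 5.18 in the low and 3.75 in the high pigment library for the sterol set, and 1.83 and 1.64 for the fatty acid set. The sterol value was 5.29, 4.49 and 5.39 in G1, S and G2M of the low pigment cells and 3.38, 3.31 and 4.09 of the high, so most of it was also present within a phase. The variance over the mean can rise with the mean, so it does not rank the relative spread of sets or libraries. The mean thinned sums were 15.1 and 8.81 sterol UMIs and 7.46 and 5.27 fatty acid UMIs (low and high pigment). The median cell held 7 fatty acid UMIs (quartiles 5 and 10) in the low and 5 (3 and 7) in the high pigment library. Of the high pigment cells, 19.6% (18.0 to 21.4) exceeded the low pigment median, and 20.7% did if not thinned.

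**Figure D4:**
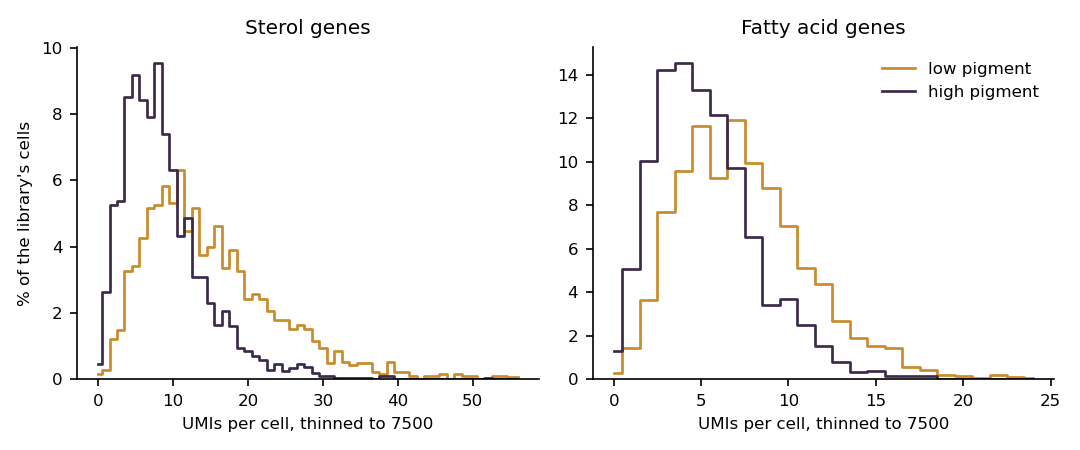
Percent of each library's cells (y axis) by the number of sterol (left) or fatty acid (right) UMIs per cell after thinning to 7500 UMIs, for 1900 low and 2136 high pigment cells. The low pigment curve is shifted right and is wider, with sterol medians of 13 and 8 UMIs.

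Sterol and fatty acid genes varied together from cell to cell within each library. The Spearman rho of the thinned sterol and fatty acid sums was 0.45 over 1900 low pigment cells and 0.37 over 2136 high pigment cells. Cells of a library share its preparation and, after thinning, their depth, so these values describe 2 libraries. Within phases rho was 0.40, 0.42 and 0.50 in G1, S and G2M of the low and 0.35, 0.35 and 0.39 of the high pigment cells. Without Scd2 it was 0.33 and 0.28.

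Each sterol gene tracked the rest of its set. The rho of a gene with the sum of the other sterol genes had a median of 0.25 in the low and 0.18 in the high pigment cells, and 20 of 21 genes in each library exceeded the 99th percentile of the measured genes outside both sets. Tm7sf2 was the exception in both. Fdps had the highest values, 0.49 and 0.37, and the next were Msmo1 with 0.48 and 0.31 and Cyp51 with 0.46 and 0.33. Hmgcs1, the gene with the largest difference between libraries, had a rho of 0.38 in the low pigment cells and 0.18 in the high. It had 1.12 and 0.257 thinned UMIs per cell there, with a UMI in 57.8% and 19.3% of cells. Sparser counts can lower a rho, and their part in this difference was not tested. The strongest single pair was Cyp51 with Msmo1 at 0.32 in the low pigment cells and Pmvk with Fdps at 0.21 in the high. Over 210 sterol pairs the median was 0.09 and 0.07, against 0.0007 and 0.0013 for pairs of other genes.

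The fatty acid genes were bound less to each other. Their median rho with the rest of their set was 0.09 and 0.07, and 5 of 10 exceeded the 99th percentile of other genes in each library. All 10 in the low pigment cells and 7 in the high had a larger rho with the sterol sum than with the other fatty acid genes, and the sterol sum holds more UMIs. Scd2 had a rho of 0.37 and 0.27 with the sterol sum and 0.24 and 0.16 with the rest of its own set. Acly, which supplies the acetyl-CoA of both pathways, had 0.18 and 0.22 with the sterol sum. Among sterol genes, Dhcr7 in the high pigment cells was the 1 case with a larger rho with the fatty acid sum.

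**Figure D5:**
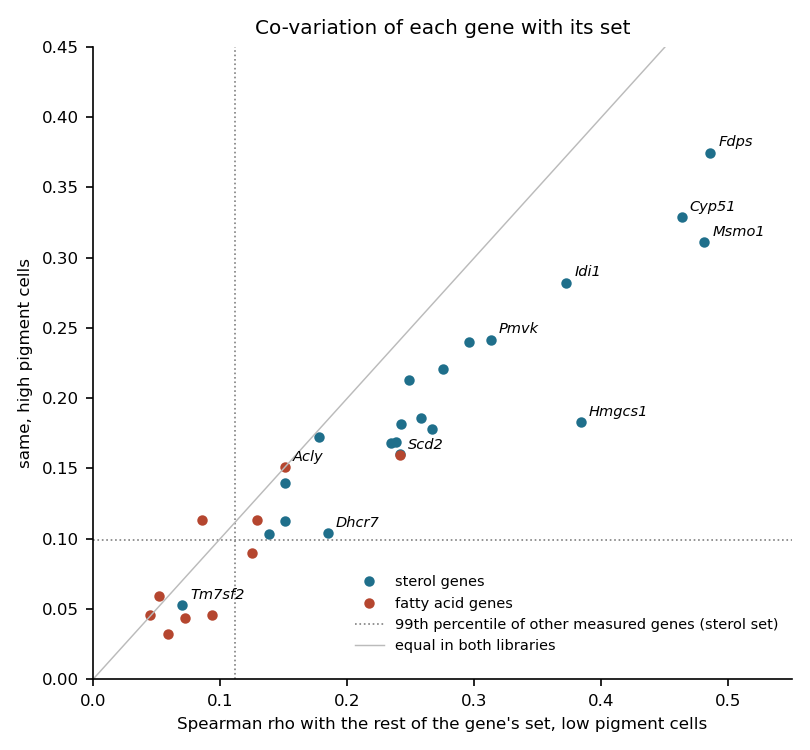
Spearman rho over cells of each gene with the sum of the other genes of its set, low pigment cells (x axis, 1900 cells) against high pigment cells (y axis, 2136 cells). Fdps, Msmo1 and Cyp51 lie at the upper right, most fatty acid genes lie at the lower left, and dotted lines mark the 99th percentile of other measured genes with the sterol sum.

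Other features of the cells were set beside the sterol sum in the same way. With the immediate early sum rho was -0.01 in the low and 0.18 in the high pigment cells, and with the melanocyte marker sum 0.04 and 0.09. With the cell's total UMIs it was 0.03 and -0.12, with the mitochondrial percent 0.12 and 0.13, and with ribosomal protein genes -0.24 and -0.26. Where both libraries were limited to cells with immediate early sums between the high pigment quartiles, 100 low and 1326 high pigment cells remained. There 17 of 20 sterol genes were called lower, at a median of -0.62, and 8 of 9 fatty acid genes, at a median of -0.57, against 30.1% of all measured genes in the same cells. Acss2, under the level filter, had 6 and 143 UMIs there and a log2 ratio of 1.19, opposite to its -0.22 over all cells. The difference between the medians of the sets, -0.23 over all cells, was -0.044 in those cells.

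Neighbouring pathways, listed by role, did not show medians as low as the synthesis genes. Of 12 measured genes in a list around SREBP processing, not all of which act on SREBP itself, 3 were called lower and 0 higher. Their median log2 ratio was -0.22. That count is near the 23.4% lower of all measured genes, of which 10.9% were higher. Sec23a, part of the coat that carries SREBP out of the endoplasmic reticulum, was at -0.42, and Pgrmc1, a haem-binding partner of cytochrome P450 enzymes, at -0.40. Sterol uptake, movement and storage had 1 lower and 1 higher of 11, with a median of -0.13. Gramd1a, which moves cholesterol from the plasma membrane inward, was at -0.67, and Soat1, which esterifies cholesterol for storage, was higher at 0.51 (122 against 174 CPM).

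The genes of the liver X receptor and of cholesterol efflux had 1 lower and 1 higher of 5, and the 2 were opposite in direction. Mylip, a ubiquitin ligase that marks lipoprotein receptors for breakdown, had 59.5 against 20.9 CPM, a log2 ratio of -1.51. Abca1, the cholesterol export pump, had 17.7 against 33.6 CPM, a log2 ratio of 0.93 and 1.90-fold higher (1.71 to 2.11). The isoprenoid branches, which use farnesyl diphosphate for other ends, had 4 lower and 0 higher of 12 and a median of -0.13, where 23.4% of all measured genes were lower and 10.9% higher. Rabggtb, a subunit of the enzyme that prenylates Rab proteins, was at -0.64 and Icmt, which methylates prenylated proteins, at -0.45.

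Fatty acid activation and elongation had 4 lower and 1 higher of 16, with a median of -0.18, and that count is near the 23.4% lower and 10.9% higher of all measured genes. Aacs, which activates acetoacetate for lipid synthesis, had 34.4 against 13.8 CPM, a log2 ratio of -1.32, beyond that of every fatty acid member. Elovl5, an elongase of polyunsaturated fatty acids, was at -0.47, and Slc25a1, the mitochondrial citrate carrier, was higher at 0.32. Fatty acid oxidation, the opposite process, had 5 lower and 0 higher of 13, with a median of -0.29. Acaa2, a thiolase of the oxidation cycle, was at -0.80 and Cpt1a, the carnitine transferase that admits fatty acids to mitochondria, at -0.71. Glycerolipid synthesis had 2 lower and 0 higher of 9, also near the share of all measured genes, with a median of -0.15. They were Chka, a choline kinase, at -1.29, and Dgat1, which completes triglycerides, at -0.55.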

How the data were processed

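Mouse B16 F10 cells of 1 low and 1 high pigment library were used, grouped by the labels' condition. Per the submitters' processing notes, the authors used Cell Ranger 6.1.2 and mm10. The deposited matrix holds raw UMI counts per gene and barcode, and the authors' deposited cell table gives library, phase, cluster and mitochondrial percent. How libraries were aggregated and phases and clusters set was not given in the sources used here. UMIs of the table's cells were added per library and divided by the library total (CPM). Ratios carry exact conditional binomial intervals and levels exact Poisson ones, at 95%, and genes are called by size alone (a ratio of 0.8). With 3 UMIs as the floor, a count of 0 allows 0.0925 and 0.104 CPM in the low and high pigment library. Cells were thinned without replacement. Scrublet (scanpy 1.11.5, expected rate 0.06) marked 18 and 15 cells, which were kept. Scripts used Python 3.11.15, numpy 2.4.6 and scipy 1.17.1 and were tested on simulated data. All 31 members are named. In each other list, up to 2 genes with the lowest and 2 with the highest ratio past the limit are named. The members, lists and settings were chosen with earlier results of these data known. Gene overlaps come from GENCODE vM21.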

Additional observations from a re-analysis of the deposited data

Results flagged for a closer look

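Hsd17b7, the reductase that works beside Msmo1, went opposite ways between phases in the 2 libraries. In the low pigment cells it had 36.5 CPM in G1 and 53.5 CPM in G2M, a ratio of 1.47 (1.28 to 1.68). In the high pigment cells it had 38.2 CPM in G1 and 32.2 CPM in G2M, a ratio of 0.843 (0.731 to 0.975). The intervals cover counting error only, each library is 1 sample, and the difference between the libraries was not tested.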

How the results depend on the processing

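No paired analysis was possible because each group is 1 library, and no library could be left out. Over 15 settings fixed at the outset, with the removal of Hmgcs1 added after seeing the data, the sterol median stayed between -0.91 and -0.62 and the fatty acid median between -0.59 and -0.42. The sterol median was -0.91 in G2M cells and -0.62 in cells matched on immediate early genes, where the difference between the sets was -0.044 against -0.23 over all cells. With a minimum of 50 CPM, 10 of 11 sterol and 5 of 5 fatty acid genes were lower, since fewer genes were counted, and at 1.5-fold 3 fatty acid genes were. The share of high pigment cells above the low pigment sterol median was 9.48% in G2M and 14.0% in the matched cells. The low pigment rho of 0.45 was 0.57 without thinning, 0.40 in G1 and 0.50 in G2M, and the high pigment rho of 0.37 was 0.46 without thinning and 0.32 over members of at least 50 CPM. Leaving out Scd2, also added after seeing the data, gave 0.33 and 0.28. Of 452 pairs of a gene and a setting, 447 kept the sign and 5 did not: Hsd17b7 in G1 (0.066), Tm7sf2 in S (0.48), Acss2 in the matched cells (1.19), and Ebp with the median gene set to 0 (0.034) or the length trend removed (0.044). For each of these shifts the cause was not tested. Depth limits Tm7sf2, Acss2 and Srebf1, with 223 to 420 UMIs in a library.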

Other observations

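Barcodes that the authors' table left out also carried these genes. In the low pigment library, 64 such barcodes with at least 7500 UMIs had 2323 CPM of sterol genes (2217 to 2433), and 499 shallower ones with under 10% mitochondrial UMIs had 1971 CPM (1884 to 2061). In the high pigment library the corresponding 35 barcodes had 1642 CPM (1502 to 1792) and the 541 shallower ones 1380 CPM (1327 to 1435). The cells of the table had 2014 and 1128 CPM. The fatty acid genes followed this order in the deeper barcodes, with 1142 CPM in the low and 866 CPM in the high pigment library. Shallow barcodes with under 10% mitochondrial UMIs did not follow it. They had 599.6 CPM (552 to 650.2) of fatty acid genes in the low and 665 CPM (628 to 704) in the high pigment library. Those with at least 10% had 929 CPM (866 to 996) and 1076 CPM (973 to 1186) of all UMIs. Their median mitochondrial percent was 91.3 in the low and 16.2 in the high pigment library. Of their other UMIs, fatty acid genes made up 2019 CPM in the low and 1318 CPM in the high, so the order depends on the denominator. In the 523 low pigment barcodes of this kind, sterol genes made up 1570 CPM of the total and 3414 CPM of the other UMIs. The table's low pigment cells had 2134 CPM of those UMIs.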
